A study of Sus scrofa with 4 samples.

Results

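The genes described here encode the TGF-beta and BMP signalling pathway of the pig: its secreted ligands, the proteins that store or block them, the receptors, the SMAD transcription factors and the inhibitors that act inside the cell. Members were the coding genes of the Sscrofa11.1 RefSeq annotation whose symbol fits a pattern of family names. The pattern reads the symbol alone. This gave 59 of 16303 named coding genes. A 60th match, INHBA, was left out because the annotation does not class that entry as coding.

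The mark mapped was lactylation of histone H4 at lysine 12 (H4K12la), an acyl group that cells make from lactate. Chromatin immunoprecipitation with sequencing was run on liver of female sows late in gestation, from a group with low (normal) and a group with high bile acids. Each group had 1 immunoprecipitated library and 1 input library, 4 samples in all, and the cells are labelled hepatocytes. The labels name no genotype, strain, age or number of animals behind a library, so nothing is known here of how far animals within a group differ.

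TGF-beta family ligands are secreted proteins, and TGF-beta itself is held in the matrix in a latent complex with LTBP proteins. A ligand brings type II and type I receptor kinases together, the type I receptor phosphorylates a receptor-regulated SMAD, and that SMAD joins SMAD4 and enters the nucleus. TGF-beta and activin act mainly through SMAD2 and SMAD3, and BMPs through SMAD1, SMAD5 and SMAD9. In the liver, TGF-beta is known for driving matrix production by stellate cells, and BMP6 for controlling hepcidin, the iron hormone of hepatocytes.

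The data are a list of H4K12la peaks for each immunoprecipitated library. The high list held 28283 peaks and the low list 5735, or 20.3% as many. The fold of a peak is the authors' ratio of its summit to the background around it. Its q is the authors' p-value after correction for the number of tests, and compares a library with its own input, not the groups with each other. Only 608 high-list and 13 low-list peaks had q under 0.05, and q was 1 for 97.4% of low-list peaks. The median high-list peak rested on 9 fragments at the summit and the median low-list peak on 10.0, where the commonest expected numbers were 1.98 and 1.94. With 1 library a group, differences between the groups could not be checked in replicates, and no p-value between groups was computed. The annotation gives gene ends without strand, so an end that starts transcription was not told from an end that stops it. "Gene end" below means within 1 kb of either end, and a peak that overlaps the gene but no such window is called internal. No genome, promoter or protein sequence was used here.

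In the high list, 14 of the 59 genes carried a gene-end peak, 30 carried a peak that overlapped the gene body and 45 had a peak within 10 kb. As shares these were 23.7% (95% exact Clopper-Pearson interval 13.6 to 36.6%), 50.8% (37.5 to 64.1%) and 76.3% (63.4 to 86.4%). Among all named coding genes the same shares were 18.4%, 45.4% and 62.8%. The gene-end and gene-body shares lay near this background, within their intervals, and the interval of the 10 kb share started just above it.

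In the low list, 0 of the 59 genes had a gene-end peak, which allows a share of up to 6.06%, against 3.58% of all coding genes. Gene bodies of 12 genes held a low-list peak (20.3%; 11.0 to 32.8%), against 15.1% of all coding genes. Within 10 kb the number was 15 (25.4%; 15.0 to 38.4%), against 22.0%. The low list too lay near its background in each window.

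**Figure D1:**
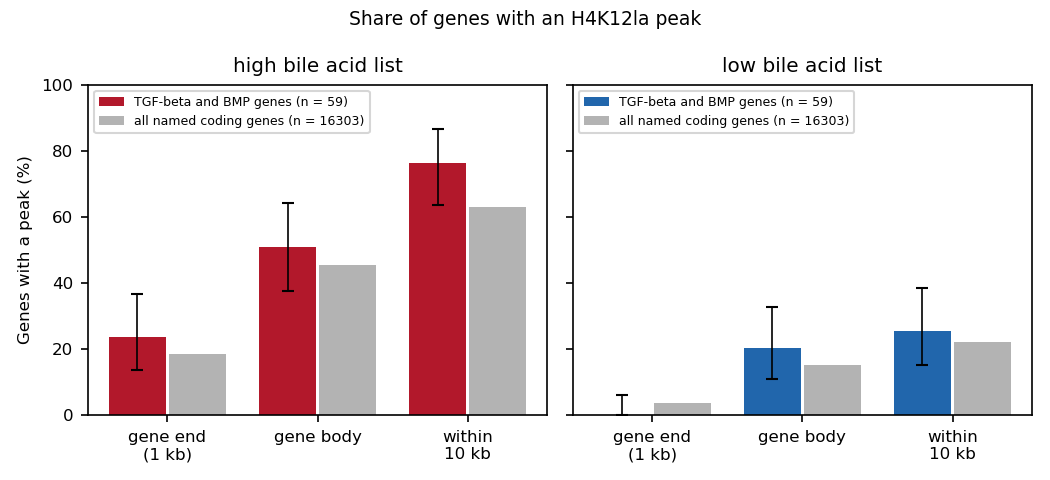
Share of genes with an H4K12la peak at a gene end, in the gene body or within 10 kb, as a percentage of genes, for the 59 TGF-beta and BMP genes (coloured bars, with exact 95% binomial intervals) and all 16303 named coding genes (grey bars). The high list is on the left and the low list on the right; the grey bar lies within every interval except that of the high list within 10 kb (63.4 to 86.4%, against 62.8%), and no member has a low-list gene-end peak.

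The high list exceeded the low list at these genes mainly at its full length. The high list was also shortened to the 5735 peaks of smallest p, which took its first 5500 peaks and 235 of the 1491 tied at the last p, of 4.29e-05, by fold and then position. That left 14 members with a peak within 10 kb (23.7%), against 24.1% of all coding genes in the same shortened list. The low list gave 15 members, but it runs to a caller's p of 0.00989, so these counts stand at unlike cutoffs. In the shortened high list, 11 members had a body peak (18.6%, against 16.1%) and 3 a gene-end peak (5.08%, against 5.19%). All 14 members with a peak within 10 kb had one of smaller p than the tie, so the choice among tied peaks added none. Keeping every tied peak gave 16 members within 10 kb (27.1%, against 27.1%), 12 in the body (20.3%, against 18.3%) and 4 at an end (6.78%, against 5.75%). The member shares thus lay near the background of each shortened list.

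The share of genes with a nearby peak rose with gene length. Members had a median length of 30.5 kb, and all coding genes one of 25.6 kb. Of the 24 members under 20 kb, 58.3% had a high-list peak within 10 kb, against 53.9% of all coding genes of that length. Of the 20 members of 20 to 100 kb, 17 had one (85%), against 64.1%, and of the 15 members of 100 kb or more, 93.3%, against 82.4%. Gene-end peaks ran the other way in members, with 8 of 24 (33.3%), 4 of 20 and 2 of 15 (13.3%) in these classes and 19.8%, 18.2% and 15.5% over all coding genes. Member bodies held 73 high-list peaks over 3.89 Mb, or 18.7 per Mb (95% Poisson interval 14.7 to 23.6), against 14.8 per Mb over all coding gene bodies. The interval takes peaks as independent, but they were unevenly spread over genes. TGFBR3 held 8 of the 73, SMAD3 held 7, and SMAD6 and LTBP1 held 6 each, so the interval is likely too narrow. In the low list, 13 peaks gave 3.34 per Mb (1.78 to 5.71), against 2.92.

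The high list held 104 separate peaks within 10 kb of a member, with folds of 2.08 to 4.26 (median 2.87, against 2.90 for the whole list) and 7 to 14 fragments at the summit. The low list held 16, with folds of 2.45 to 3.77 (median 3.05, against 2.98) and 8 to 16 fragments. No high-list peak of a member overlapped a low-list peak, and over all coding genes 1.18% had such an overlap. Peaks in both lists stood within 10 kb of 12 members (20.3%; 11.0 to 32.8%), against 16.6% of all coding genes, and a further 33 members had peaks in the high list only, 3 in the low list only and 11 in neither.

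**Figure D2:**
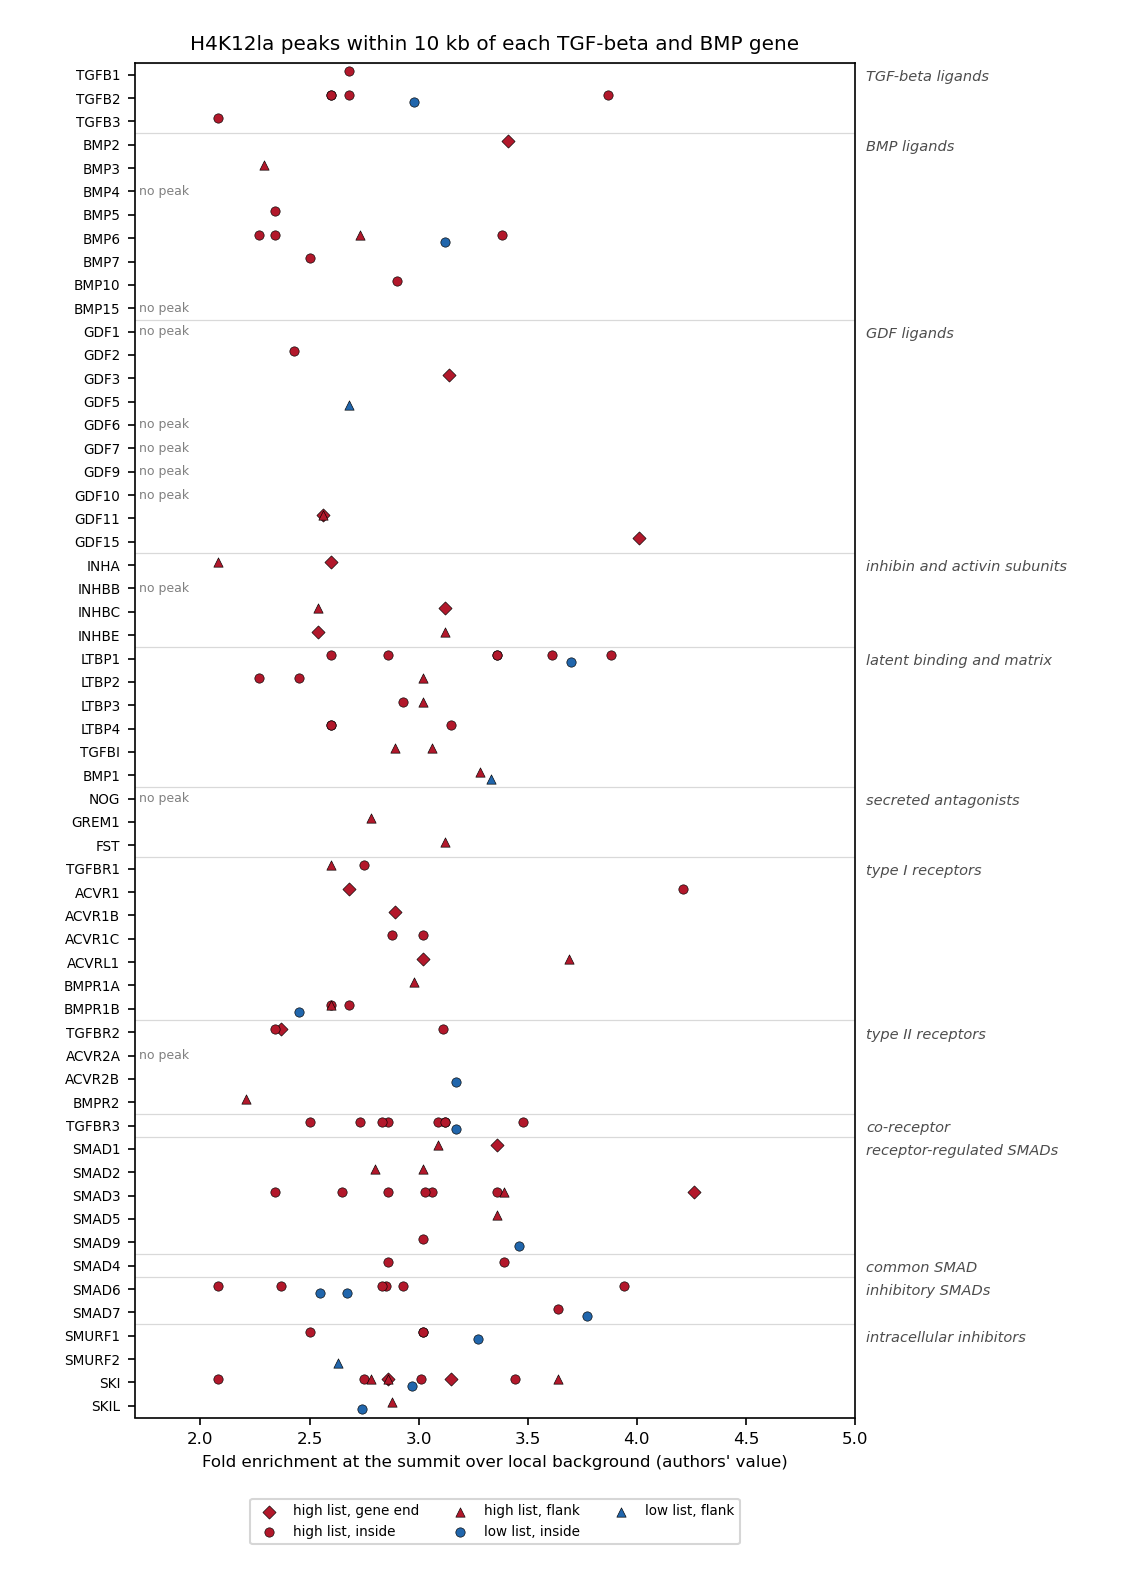
Every peak within 10 kb of 58 of the 59 genes, ordered by role; the x axis is the authors' fold at the summit, red marks the high list, blue the low list, and the shape gives the peak's place (diamond, gene end; circle, inside the gene; triangle, flank). SMAD3, ACVR1 and GDF15 hold the 3 peaks with a fold of 4 or more, blue diamonds are missing, and 10 of the genes shown have no peak.

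The counts by role below are small and stand beside shares over all coding genes of 18.4% at a gene end and 62.8% within 10 kb in the high list, and of 3.58% and 22.0% in the low list. No role was tested against them. All 3 TGF-beta ligands carried internal high-list peaks and none at a gene end. TGFB1, the main profibrotic form, at chromosome 6, 49332169 to 49348642, had 1 internal peak of fold 2.68 (q 0.50) that rested on 7 fragments over 1.98 expected. TGFB3 had 1 of fold 2.08 (q 0.711), which also lies in the overlapping gene IFT43. TGFB2, at chromosome 10, 8306136 to 8435307, had 4 internal high-list peaks, with folds of 2.60, 2.60, 3.87 and 2.68. The strongest of them spans 8347944 to 8348439 and had q 0.0735 on 11 fragments (95% interval 5.49 to 19.7) over 2.1 expected. The low list held a TGFB2 peak elsewhere in the gene, 60.3 kb from the nearest high-list peak, of fold 2.98 (q 1).

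Of the 8 BMP ligand genes, 6 had a high-list peak within 10 kb and 1 had a gene-end peak. That gene was BMP2, first known as an inducer of bone and cartilage, at chromosome 17, 15750487 to 15762982. Its peak spans 15749887 to 15750257, just outside the low-coordinate end, with a fold of 3.41 (q 0.139) on 11 fragments over 2.52 expected. BMP6, the ligand of the iron pathway, had internal peaks of fold 3.38 (q 0.139), 2.34 and 2.27 and a flanking peak of 2.73 in the high list. Its low-list peak, of fold 3.12 (q 1), lay 35.4 kb from the nearest of these. BMP5, BMP7 and BMP10 each had 1 internal high-list peak, of fold 2.34, 2.50 and 2.90, and BMP3 had a flanking peak of 2.29. BMP4 and BMP15, the latter an oocyte ligand, had none within 10 kb. The nearest high-list peak to BMP4 was 22.6 kb away, and that to BMP15, the only member on chromosome X, was 941 kb away.

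Among 10 GDF genes, 4 had a high-list peak within 10 kb, 3 of them at a gene end. GDF15, a stress-induced cytokine that hepatocytes secrete, held the highest fold among the ligand members. The gene is 2.32 kb long, at chromosome 2, 59409035 to 59411356, and the peak covers 668 bp in its middle, from 59409753 to 59410420, close enough to both ends to count as a gene-end peak. Its fold was 4.01 (q 0.0528) on 12 fragments (6.20 to 21.0) over 2.24 expected, and it ranked 611th of the high list by p. The nearest low-list peak was 203 kb away. GDF3, an embryonic ligand, had a gene-end peak of fold 3.14 (q 0.232), and GDF11 had a gene-end and a flanking peak, each of fold 2.56 (q 0.50). GDF2, which encodes the circulating ligand BMP9, had an internal peak of 2.43 (q 0.531) in sequence shared with ZNF488. GDF5 had only a low-list peak, in the flank, of fold 2.68 (q 1). GDF1, GDF6, GDF7, GDF9 and GDF10 had none within 10 kb.

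Inhibin and activin subunit genes had high-list gene-end peaks in 3 of 4 cases, against 19.8% of all coding genes under 20 kb. INHBC and INHBE, which encode activin subunits made mainly by the liver, lie 4.01 kb apart on chromosome 5, and each had its own gene-end peak in the high list. The INHBC peak, from 22728376 to 22728765, had a fold of 3.12 (q 0.232) on 10 fragments, and the INHBE peak, from 22733400 to 22733830, one of 2.54 (q 0.50) on 8. INHA, the inhibin alpha subunit, had a gene-end peak of fold 2.60 (q 0.429) that also lay within 1 kb of an end of OBSL1. No low-list peak lay within 10 kb of these 3 genes, nor any peak of either list near INHBB.

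Counted over all 25 ligand genes, the high list gave 7 with a gene-end peak (28.0%, against 18.4% of all coding genes) and 16 with a peak within 10 kb (64.0%, against 62.8%). In the low list the numbers were 0 and 3, against 3.58% and 22.0%. Ligand genes thus lay near the share over all coding genes within 10 kb in the high list. Their median length was 7.70 kb, against 25.6 kb for all coding genes. Among all coding genes under 20 kb, 19.8% had a high-list gene-end peak. Within 10 kb, 53.9% of those genes had a high-list peak and 13.8% a low-list peak. The part of gene length was not tested.

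Genes for proteins that store, process or block the ligands had no gene-end peak (0 of 10 in each list, against 18.4% and 3.58% of all coding genes), and 8 of the 10 had a high-list peak within 10 kb, against 62.8%. LTBP1, which anchors latent TGF-beta in the matrix and is 424 kb long, had 6 internal high-list peaks. At least as many stood within 10 kb of 17.4% of all coding genes of 100 kb or more. The LTBP1 folds ran from 2.60 to 3.88, the strongest with q 0.0735 on 12 fragments. The single low-list peak of LTBP1 had a fold of 3.70 (q 1) on 12 fragments, at chromosome 3, 106616433 to 106617229. That peak was 85.4 kb from the nearest high-list peak, in a stretch of the gene with no high-list peak. LTBP4 had 3 internal peaks, of fold 2.60, 3.15 and 2.60, LTBP2 had 2 internal peaks and a flanking peak, and LTBP3 had 1 internal peak of 2.93 and a flanking peak of 3.02. TGFBI, a matrix protein induced by TGF-beta, had flanking peaks of 3.06 and 2.89. BMP1, a procollagen protease rather than a ligand, had a flanking peak in each list at opposite ends, of fold 3.28 (q 0.166, high) and 3.33 (q 1, low). Among the secreted antagonists, FST, the activin trap follistatin, had a flanking peak of 3.12 and GREM1, the BMP antagonist gremlin, one of 2.78. NOG, which encodes noggin, had none.

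Of 12 receptor genes, 4 carried a high-list peak at a gene end (33.3%, against 18.4% of all coding genes) and 10 carried one within 10 kb (83.3%, against 62.8%). Their median length was 86.6 kb, and 64.1% of all coding genes of 20 to 100 kb and 82.4% of longer ones had a peak within 10 kb. In the low list these numbers were 0 and 3, against 3.58% and 22.0%. All 7 type I receptors had a high-list peak within 10 kb, and 2 of the 4 type II receptors did. Median gene lengths were 76.7 kb for type I and 86.6 kb for type II. This difference between receptor types was not tested.

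ACVR1, a type I receptor for BMPs (ALK2), held the highest fold among the receptor members. The gene lies at chromosome 15, 64749478 to 64891653, and the peak spans 64772395 to 64772805, inside it. The fold was 4.21 (q 0.0306) on 13 fragments (6.92 to 22.2) over 2.32 expected, and it also lay within 1 kb of an end of the uncharacterised gene LOC102166560. A weaker peak, of fold 2.68 (q 0.50) on 7 fragments, lay at the high-coordinate end. The nearest low-list peak was 58.1 kb from the gene. ACVR1C, its neighbour at 220 kb, had internal peaks of 3.02 and 2.88.

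ACVRL1 and ACVR1B lie 30.2 kb apart on chromosome 5, and both had a high-list peak at the outer end of the pair, with no peak in the gap. ACVRL1, the endothelial receptor for BMP9, had a gene-end peak of fold 3.02 (q 0.33) and, further out, a flanking peak of 3.69 (q 0.139). ACVR1B, the activin receptor, had a gene-end peak of 2.89 (q 0.301). TGFBR2, the type II receptor of TGF-beta, had a gene-end peak of 2.37 (q 0.531) and internal peaks of 3.11 and 2.34. Its partner TGFBR1 had an internal peak of 2.75 (q 0.381) and a flanking peak of 2.60. For the BMP receptors, BMPR1A and BMPR2 had only a flanking high-list peak each, of 2.98 and 2.21. BMPR1B, the longest member at 499 kb, had 2 internal high-list peaks and a flanking one, of 2.60 to 2.68. BMPR1B also had an internal low-list peak of fold 2.45, 51.2 kb from the nearest high-list peak. ACVR2B had a low-list peak only, internal, of fold 3.17 (q 1), and ACVR2A had none.

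TGFBR3, the co-receptor betaglycan, held 8 internal high-list peaks over 201 kb and none at an end. The folds ran from 2.50 to 3.48 and no q fell below 0.139. Of the 2763 coding genes of 100 kb or more, 9.41% had at least as many high-list peaks within 10 kb, and the median gene of that class had 2.00. The low list held 1 internal peak there, of fold 3.17 (q 1), 35.8 kb from the nearest high-list peak.

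All 8 SMAD genes had a high-list peak within 10 kb and 3 had a low-list peak, against 62.8% and 22.0% of all coding genes. Their median length was 81.4 kb, and 82.4% of all coding genes of 100 kb or more and 64.1% of those of 20 to 100 kb had such a high-list peak. SMAD3, the receptor-regulated SMAD of TGF-beta and activin, held the highest fold among the 59 members. The gene lies at chromosome 1, 164998457 to 165124455, and the peak spans 164998984 to 164999278, with its summit 612 bp inside the low-coordinate end. It had a fold of 4.26 (q 0.0179) on 14 fragments (7.65 to 23.5) over 2.52 expected and ranked 182nd of the high list. SMAD3 also held 6 further body peaks, of fold 2.34 to 3.36, and a flanking peak of 3.39 within the neighbouring gene AAGAB. That made 8 within 10 kb, and 9.41% of all coding genes of 100 kb or more had at least as many. The low list had no peak within 10 kb of SMAD3, the nearest being 11.5 kb away.

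SMAD6, an inhibitory SMAD that blunts BMP signals, lies 263 kb from SMAD3 on the same chromosome with no coding gene between them. It had 6 internal high-list peaks, the strongest of fold 3.94 (q 0.0735) on 11 fragments, 4582 bp from the low-coordinate end. From the start of SMAD6 to the end of SMAD3 the high list held 15 peaks, of which only 2 lay between the genes. The low list held 4, 2 inside SMAD6 (folds 2.67 and 2.55, q 1 for both), 2 between the genes and none in SMAD3. At SMAD6 the lists came closest of all 12 members with peaks in both: a high-list peak of fold 2.37 and the low-list peak of fold 2.67 were 107 bp apart. In the other 11 members the gap was 2.37 to 85.4 kb.

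SMAD7, the inhibitory SMAD that TGF-beta itself induces, had an internal peak in each list, 4.09 kb apart. The high-list peak, at chromosome 1, 98541320 to 98541886, had a fold of 3.64 (q 0.0735) on 13 fragments. The low-list peak, from 98536926 to 98537224, had a fold of 3.77 (q 0.430) on 16 fragments (9.15 to 26.0) over 3.0 expected. This low-list peak ranked 41st of its list and was the only low-list peak of a member with q below 1. SMAD9 also had an internal peak in each list, of fold 3.02 (q 0.33, high) and 3.46 (q 1, low).

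The remaining SMADs had high-list peaks only. SMAD1, a BMP SMAD, had a gene-end peak of 3.36 (q 0.232) and a flanking peak of 3.09. SMAD4, the shared partner, had internal peaks of 3.39 (q 0.167) and 2.86. SMAD2 had flanking peaks of 2.80 and 3.02 on either side, and SMAD5 had 1 of 3.36, so neither gene body held a peak.

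All 4 intracellular inhibitor genes had a low-list peak within 10 kb and 3 had one in the high list, against 22.0% and 62.8% of all coding genes. Their median length was 79.6 kb, and a low-list peak stood within 10 kb of 21.3% of all coding genes of 20 to 100 kb and 44.6% of longer ones. With 4 genes in 1 library, nothing is read from this count. Their 4 low-list peaks had q of 1. SKI, a co-repressor that binds SMADs, had the most high-list peaks of any member and was singled out after the values were seen. It had 9 high-list peaks within 10 kb of a gene of 54.3 kb, at chromosome 6, 64188265 to 64242596. At least as many stood within 10 kb of 11 of 6489 coding genes of 20 to 100 kb (0.170%), SKI included. As SKI was picked for its count, this share is not a test. Of the 9, 4 clustered at the high-coordinate end, from 64241967 to 64246106, with folds of 3.15, 2.86, 2.86 and 3.64 (q 0.232, 0.326, 0.326 and 0.109). No peak of SKI had q under 0.05, and the low list held 1 internal peak of fold 2.97. SKIL, its paralogue, had a flanking high-list peak of 2.88 and an internal low-list peak of 2.74. SMURF1, a ubiquitin ligase that targets SMADs and receptors, had 3 internal high-list peaks of 2.50, 3.02 and 3.02 and 1 of 3.27 in the low list. SMURF2 had only a low-list peak, of 2.63, at the edge of the 10 kb flank.

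**Figure D3:**
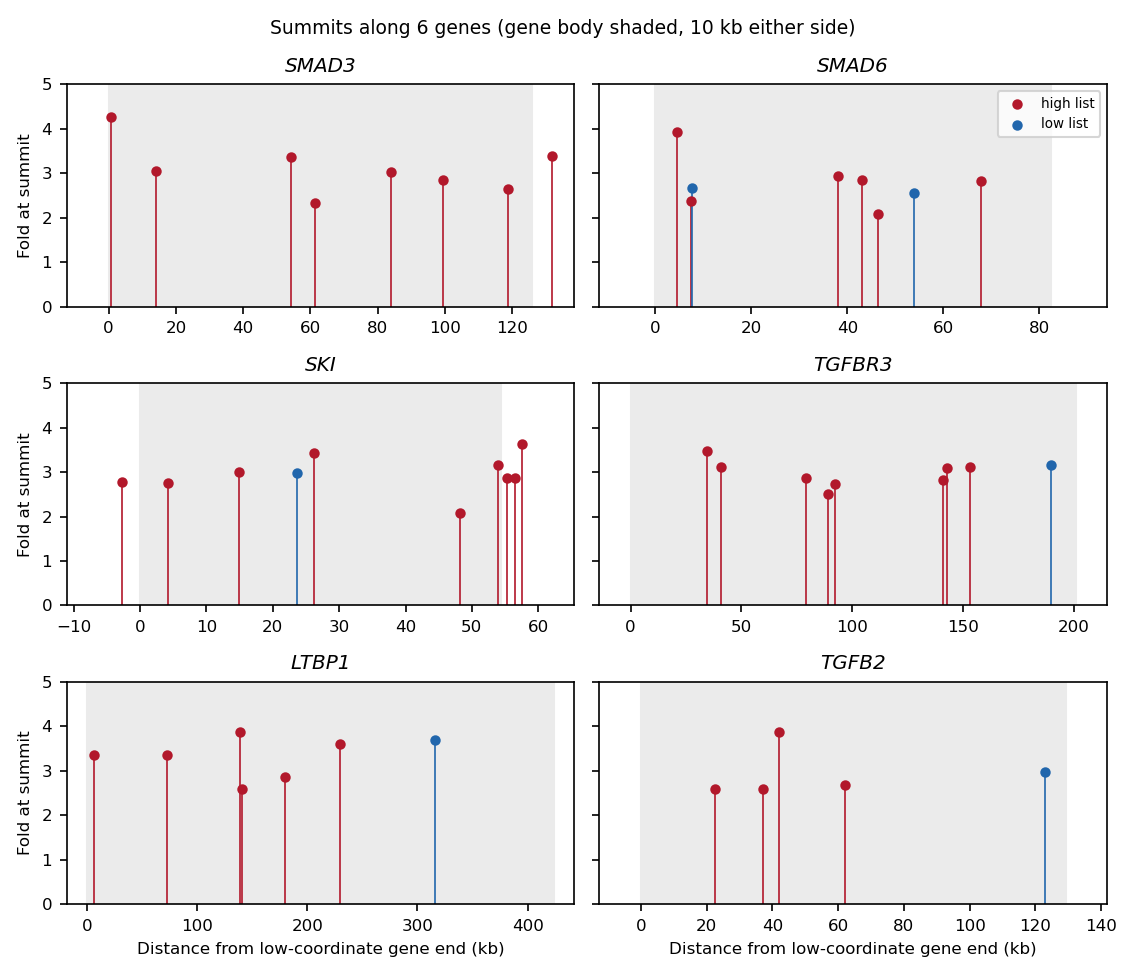
Summits along SMAD3, SMAD6, SKI, TGFBR3, LTBP1 and TGFB2; the x axis is the distance in kb from the gene end with the lower coordinate, the y axis the authors' fold, and the shaded band the gene body. High-list (red) and low-list (blue) summits stand at different places in the 5 genes that have both, nearest in SMAD6, SMAD3 has no blue summit, and 4 red summits crowd at the right end of SKI.

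Across all roles, the 15 gene-end peaks had folds of 2.37 to 4.26 with a median of 3.02, and 9 of their summits lay inside the gene. Only that of SMAD3 had q under 0.05. With the internal peak of ACVR1, 2 members (3.39%; 0.413 to 11.7%) had a peak of q under 0.05 within 10 kb, against 3.60% of all coding genes.

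A peak called in only 1 list does not show a difference in the mark, because the other library's fragments at that place are not in the lists. As a guide, the fewest fragments that would have passed a p of 0.01 in the other library were computed over the same expected number. For SMAD3 that number was 8 in the low library, inside the interval of 7.65 to 23.5 of the high library's count. For ACVR1 it was 7, just inside 6.92 to 22.2, and for GDF15 also 7. None of the 104 high-list peaks had an interval that started at or above the low library's number. Of the 16 low-list peaks, 2 did so against the high library, those of SMAD7 (8 needed) and LTBP1 (6 needed). These intervals count fragments before the low library's pileup was multiplied down, while its expected numbers were taken after. The lower limit of LTBP1, 6.20, stands above 6 only before that multiplication, so nothing is read from the LTBP1 peak here.

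**Figure D4:**
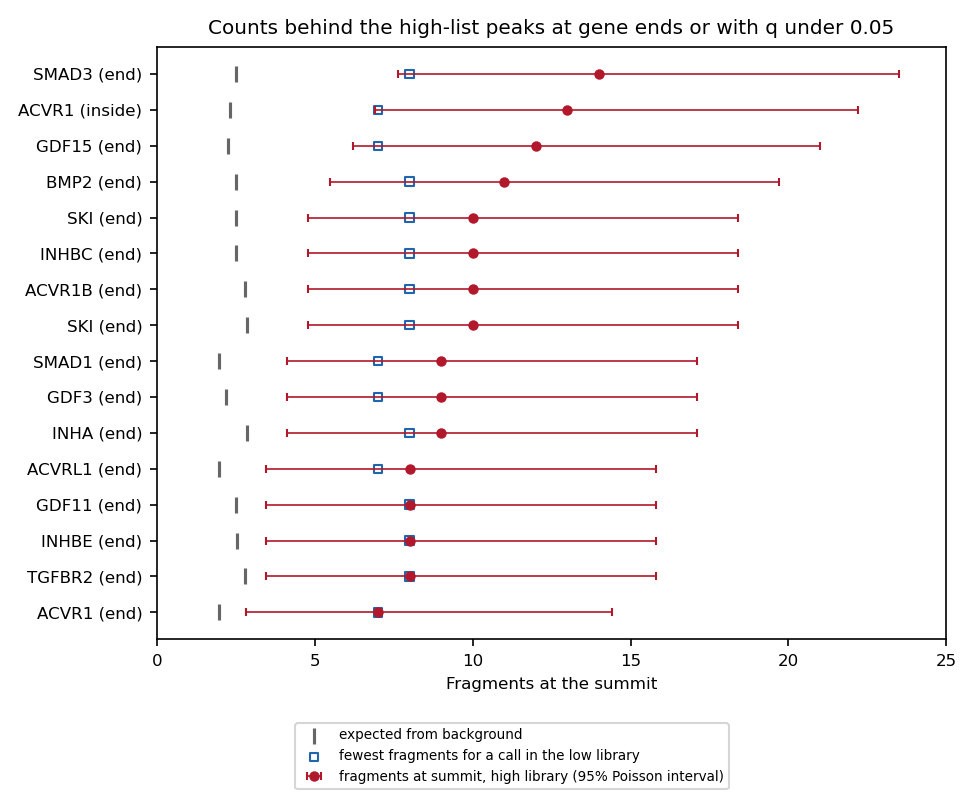
Fragments at the summit of the 15 gene-end peaks and the internal ACVR1 peak of the high list (red points, with 95% Poisson intervals), the number expected from background (grey ticks) and the fewest fragments that would have given a call in the low library over the same background (blue squares). Each blue square lies within the red interval, closest to its lower limit for ACVR1 and SMAD3.

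Other genes of the pathway came from a list of 90 symbols, of which 85 were measured and none is a member. They showed 20 high-list cases of a gene-end peak (23.5%) and 4 low-list cases (4.71%), against 18.4% and 3.58% of all coding genes. Within 10 kb the numbers were 57 and 26 of the 85, somewhat larger as shares than the 62.8% and 22.0% of all coding genes. This difference was not tested. ID2, an inhibitor of helix-loop-helix factors that BMPs induce, had the highest fold of the list, 5.03 (q 0.00241) on 14 fragments at a gene end. PMEPA1, a TGF-beta target that restrains SMAD signalling, followed with an internal peak of 4.71 (q 0.00622), and HIPK2, a kinase that binds SMAD co-repressors, had an internal peak of 4.23 (q 0.0193). These internal peaks were singled out after their values were seen. VWC2, a secreted BMP antagonist, had a gene-end peak of 4.36 (q 0.0212) and ATOH8, a BMP-induced factor of the iron pathway, one of 4.36 (q 0.0310). ID3 had a weaker one of 3.11 (q 0.242). ID1 had no high-list peak within 10 kb and a flanking low-list peak of 2.68. Among 22 measured targets, 5 had a high-list gene-end peak, against 18.4% of all coding genes. HAMP, which encodes hepcidin, had only flanking high-list peaks, of 3.58 (q 0.130) and 2.88.

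The counts in this paragraph stand beside 18.4% of all coding genes with a high-list gene-end peak, and no group was tested against it. The group listed as extracellular antagonists, which also holds BRINP3, had a gene-end peak at 3 of 13 genes in the high list (23.1%). VWC2 and NBL1 (3.35) were among them. Intracellular regulators had one at 6 of 24, among them the SMAD co-repressors TGIF2 and TGIF1 at 3.48 and 3.06, the SMAD anchor ZFYVE9 at 3.35 and the SMAD phosphatase PPM1A at 3.21. The group of co-receptors and membrane regulators had one at 3 of 10 (30.0%), including ENG, endoglin, at 2.45 beside internal peaks of 3.35 and 3.09. The group of ligands and their carriers had one at 3 of 17 (17.6%), with ITGAV, an integrin subunit that frees latent TGF-beta, at 3.37. TGFB1I1 of the target list had one at 2.96.

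The 4 low-list genes were SNAI2, a transcription factor of mesenchymal cells, at 3.60, and THBS1, FURIN and BMPER at 2.53, 2.45 and 2.42 (q 1 for each). Overlapping peaks of both lists stood at 2 genes of the list, which were singled out after their values were seen, against 1.18% of all coding genes. THBS1, an activator of latent TGF-beta, had them at the same gene end of chromosome 1, 131745986 to 131746513 (high, fold 2.60) and 131745898 to 131746196 (low). TMPRSS6, a protease that lowers hepcidin, had them inside the gene on chromosome 5, 10681759 to 10682053 (high, fold 2.29) and 10681947 to 10682255 (low, fold 3.05).

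The labelled cell type was compared with markers of liver cells. A peak within 10 kb was present at 6 of 10 hepatocyte, 5 of 10 stellate and fibroblast, 5 of 10 Kupffer and myeloid, 8 of 10 endothelial and 4 of 9 cholangiocyte markers in the high list, and at 1, 2, 2, 3 and 1 of them in the low list. Over all coding genes these shares were 62.8% and 22.0%, and with 9 or 10 genes a set the counts give no order among the cell types. Several members are known from stellate or endothelial cells, and in a bulk library a mark in fewer cells and a weaker mark in more cells cannot be told apart. The part of cell composition in these values was not tested.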

How the data were processed

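The pathway, the pattern of symbols and the gene lists were chosen with earlier results of these data known, although the pattern itself reads no measured value. The submitters' processing notes list MACS2 2.1.0, Bowtie 1.1.2, Trimmomatic 0.33 and bcl2fastq 2.17, and both hg38 and Sscrofa11.1 as builds; chromosomes 1 to 18, X and Y and the gene positions fit the pig. Settings are not given in the sources used here. Per the labels' protocols, chromatin was fixed in 1% formaldehyde, sonicated for 8 min, and libraries of 250 to 450 bp were made from 10 ng DNA with 13 cycles of amplification. Each deposited list holds the authors' peaks of 1 library, with a fold ratio over background, a −log10 p-value and a −log10 q-value at the summit. The deposited score is 10 times the −log10 p cut to a whole number and was not used.

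Peaks (Python 3.11.15, pandas 2.3.3, scipy 1.17.1) were assigned to a window by an overlap of at least 1 bp: 1 kb either side of either gene end, the gene body, or the gene with 10 kb either side. Fragments were recovered by solving the fold and the p-value together for a whole number, which succeeded for 100% of peaks within 0.002 in −log10 p; the low library's pileup had been multiplied by 0.881. The caller's cutoff was taken as p 0.01, since the largest deposited p was 0.00989. Intervals (95%, Clopper-Pearson or exact Poisson) cover counting error only, as reads without molecular identifiers are not independent molecules. Recovery and placement were tested on simulated data. All members but 1 are named; of the further list, the 12 with the highest gene-end fold and 5 fixed genes were set to be named, of which CCN2 had no match by symbol, as had 4 other listed symbols. The annotation holds CCN2 as a synonym of CTGF, which was not counted and had 0 peaks within 10 kb in either list. Results for 2 genes are not reported here. The planned motif search needed promoter sequence and was not run.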

Additional observations from a re-analysis of the deposited data

How the results depend on the processing

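No paired analysis was possible because there is only 1 immunoprecipitated library per group. Of the planned and added alternatives, those below moved a count by over 1.5 times. At q under 0.05, members with a gene-end, body and 10 kb peak numbered 1, 2 and 2 in the high list. As shares these were 1.69%, 3.39% and 3.39%, against 0.816%, 2.16% and 3.60% of all coding genes. In the low list 0 had a body or 10 kb peak, against 0.0307% and 0.0613%. Other pathway genes with a gene-end peak then numbered 3 and 0. At a fold of 4 or more, members numbered 2, 3 and 3 in the high list. As shares these were 3.39%, 5.08% and 5.08%, against 0.994%, 2.93% and 4.65% of all coding genes. In the low list 0 had a body or 10 kb peak, against 0.233% and 0.337%. With the high list at the length of the low list, the member counts were 3, 11 and 14, and 7 other pathway genes had a gene-end peak. With ties kept, an alternative chosen after seeing the data, they were 4, 12 and 16, and 7. These shorter lists hold fewer peaks by construction, and over all coding genes the high-list gene-end share fell to 0.816%, 0.994%, 5.19% and 5.75%. A gene-end window of 500 bp gave 8 members in the high list (13.6%, against 13.0% of all coding genes), and one of 3 kb gave 24 in the high list (40.7%, against 31.3%) and 1 in the low list (1.69%, against 6.66%). Members with peaks in both lists fell from 12 to 0 when the peaks had to overlap by 1 bp or by 50% of each, against 1.18% and 0.632% of all coding genes. Placing peaks by their summits, windows of 5 and 25 kb, and, as further choices made after seeing the data, leaving out peaks at another gene's end and matching listed genes by synonym kept every count within 1.5 times. The shares over all coding genes moved under some of these settings. Without peaks at another gene's end, the high-list gene-end share of members was 22.0%, against 13.2%. In the low list it was 0, against 2.47%. Within 5 kb the high list gave 72.9%, against 56.1%, and the low list 23.7%, against 18.8%. Within 25 kb they gave 84.7%, against 75.6%, and 28.8%, against 30.2%. These differences were not tested. At 7 to 16 fragments a peak, depth limits what a missing call can show.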
